A study of Mus musculus with 20 samples.

Results

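The genes described here are 10 genes of the mouse MHC class II pathway: the class II chains H2-Aa, H2-Ab1 and H2-Eb1, the invariant chain Cd74, the H2-M chains H2-DMa, H2-DMb1 and H2-DMb2, the H2-O chains H2-Oa and H2-Ob, and the transactivator Ciita. They were chosen by name, and every non-control probe that the array files annotate to one of them was used, which gave 15 probes of 10 genes, out of 39429 non-control probes under 31093 gene and transcript names. H2-Ob and Ciita had 3 probes each, H2-Ab1 had 2, and the other genes had 1.

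The values are from whole blood of male mice, with 1 single-colour Agilent array for each of 20 mice by the labels. The control groups were 5 WT mice (C57BL/6) and 5 Il10-/- mice (B6.129P2-Il10tm1Cgn/J, littermates from heterozygous parents), aged 8 to 10 weeks and sham-irradiated. The irradiated groups were 5 WT and 5 Il10-/- mice of the same age that received 7 Gy of X-rays to the whole body. In every group blood was taken by cardiac puncture 24 h after treatment into PAXgene solution, and the RNA was depleted of globin transcripts. The comparisons ask how the blood transcriptome responds to the dose in each genotype and whether the genotypes differ.

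Class II molecules on the surface of B cells, dendritic cells and some monocytes present peptides to CD4+ T cells. The invariant chain holds the binding groove until endosomal proteases cut it down to a short peptide, H2-M exchanges that peptide for others, and H2-O binds H2-M and restrains it, mainly in B cells. Ciita is the co-activator that the promoters of these genes share, through factors that bind their X and Y boxes.

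Every one of the 5 slides held 4 arrays, 1 from each group, and the replicate number is the slide number. Between 29.7% and 56.9% of an array's non-control probes were well above background as the scanner software marks it (median 49.8%). The share was under 40% on 4 arrays: WT control replicates 4 (38.2%) and 5 (29.7%) and irradiated Il10-/- replicates 3 (34.2%) and 4 (38.3%). Replicates 1 and 2 of a group were the most alike of its pairs. Their values correlated at r = 0.987 to 0.991 over 18587 probes (description, across probes of 2 arrays), against 0.858 to 0.976 in the other pairs. The labels list them as separate mice, which was not tested, so results are also given with these replicates averaged as 1 sample. The only Il10 probe was not well above background on any WT array and was well above it on all 10 Il10-/- arrays, with means of 2.75 (control) and 2.71 (irradiated). The signal is thus found in the genotype labelled as lacking the gene and not in the other, and the files do not say which part of the gene the allele lacks. The probe separates the 2 sets of arrays, but it is no check that the labels are right, and it does not show that the transcript is absent. Neutrophil markers also differed between the genotypes without irradiation, with 3 of 6 called higher in Il10-/- mice and mean sums of 14.15 against 12.26. The study's blood counts also gave a higher neutrophil percentage in unirradiated Il10-/- mice.

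Values below are log2 intensities minus the median of the array's non-control probes, listed from replicate 1 to replicate 5, and levels of different probes are not compared, except to name the probe of a marker list with the highest mean over the 20 arrays. A probe was tested when it passed a filter on background and outlier spots and a filter on change, which 13 of the 15 did, for 10 of the 10 genes. The H2-Ob probe A_55_P2057931 was marked on 16 of 20 arrays and was well above background on none, and the Ciita probe A_55_P2143641 passed the background filter only. No spot of the 15 probes was saturated on any array. A probe is called where its limma p was under 0.001 with an adjusted p under 0.1 over all 18587 probes tested.

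In WT mice 9 of the 13 probes tested were called after irradiation, all lower, where 6.80% of all probes tested were called and 2.32% were called lower. Of the 13 probes 11 were called in Il10-/- mice, all lower, where 9.16% of all probes were called and 5.87% were called lower. The irradiated and control values did not overlap for 10 of 13 probes in WT mice, beside 4.26% of all probes that were lower without overlap. They also did not overlap for 10 of 13 in Il10-/- mice, beside 10.9% of all probes. At an unadjusted p under 0.05 the count was 12 of 13 in WT mice, beside 29.1% of all probes, and 12 of 13 in Il10-/- mice, beside 35.5%. The median log2 difference of the 13 probes was -1.85 in WT mice, beside -0.02 over all probes tested, and -1.60 in Il10-/- mice, beside -0.10.

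These counts moved with single arrays, since several probes had p close to the threshold. In WT mice the count of 9 became 5, 4 and 5 without control replicate 1, 2 or 3, and 4, 4 and 5 without irradiated replicate 1, 2 or 3. For Il10-/- mice the count of 11 became 7, 6 and 7 without control replicate 2, 3 or 4, and 5 without irradiated replicate 1 or 2. Over the settings just listed, 4.64% to 5.43% of all probes were called in WT mice and 6.34% to 8.18% in Il10-/- mice. Over all 10 settings of a genotype with 1 array left out, the shares ran from 4.64% to 8.46% and from 6.10% to 8.26%. With replicates 1 and 2 averaged the count was 3 in WT mice, both H2-Ob probes and H2-DMb2 (4.06% of all probes), and 4 in Il10-/- mice, the same probes and H2-Oa (4.38%). With the replicate block (the slide as a block), 7 probes were called in WT mice (8.75% of all probes) and 4 in Il10-/- mice (6.94%). The block lost the calls of H2-Aa, H2-Ab1 A_55_P2146560 and Ciita A_55_P2179074 in both genotypes, and in Il10-/- mice also those of H2-Ab1 A_55_P1962747, H2-Eb1, Cd74 and H2-DMb1. H2-Oa, H2-DMb1 and H2-Eb1, not called in WT mice, were each called there with the 75th percentile, reference array, quantile and deposited-table values. With the normexp background correction limma called 0 of the 11 probes then tested in either genotype, where it called 261 of 11433 probes in WT mice and 0 in Il10-/- mice. At an unadjusted p under 0.05, that correction left 3 of 11 in WT mice, beside 29.0% of all probes, and 7 of 11 in Il10-/- mice, beside 3.81%. All 13 probes were lower in irradiated mice of both genotypes under each scaling of the arrays tried (14 of 14 with the 75th percentile and 11 of 11 with normexp, which change what passes the filters). Those scalings moved the median of all probes from -0.28 to 0.65 in WT mice and from -0.32 to 0.19 in Il10-/- mice. The median of the probes of the set ran from -2.19 (quantile) to -0.93 (normexp) in WT mice. In Il10-/- mice it ran from -1.86 (normexp) to -1.43 (quantile).

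**Figure D1:**
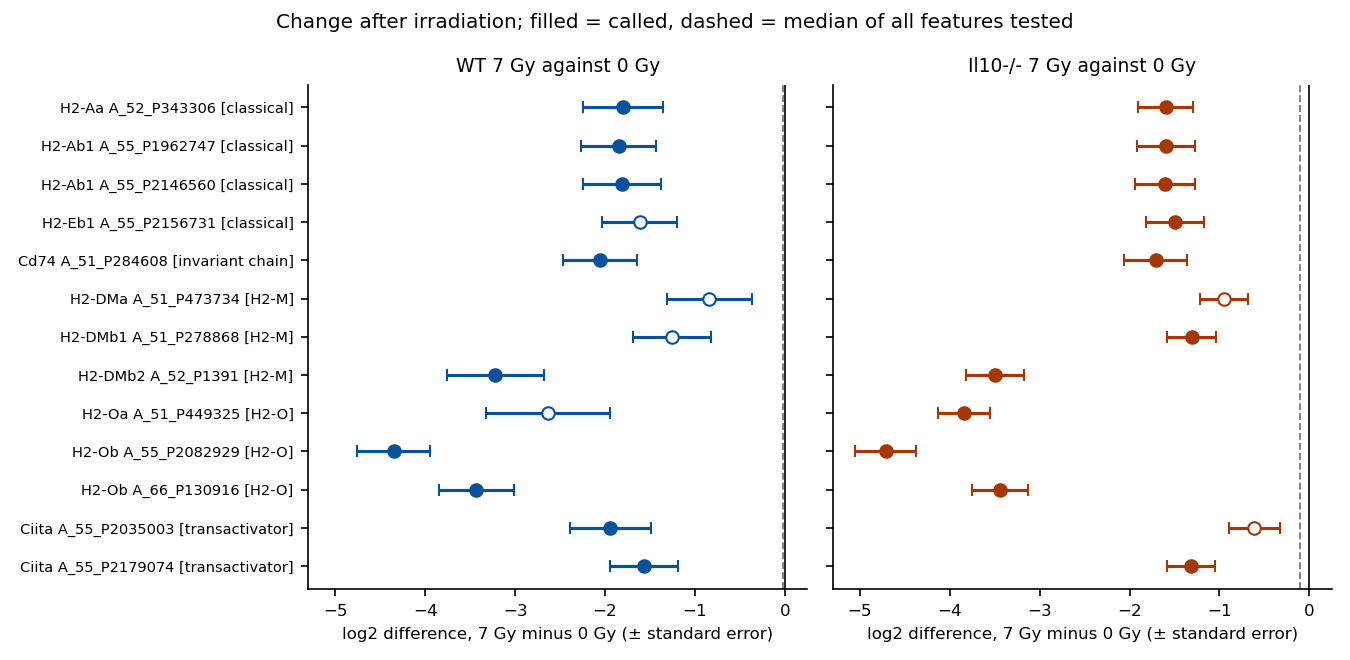
Log2 difference, 7 Gy minus 0 Gy, with its standard error for the 13 probes tested, in WT mice (left) and Il10-/- mice (right), ordered by role. Filled points were called, and the dashed line is the median of all probes tested (-0.02 and -0.10). The points of H2-DMb2, H2-Oa and H2-Ob lie between -4.71 and -2.63, and those of the other genes between -2.06 and -0.61.

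H2-Ob, the β chain of H2-O, has 2 tested probes, each lower after irradiation in both genotypes. Its probe A_66_P130916 read 5.85, 6.19, 6.03, 4.88 and 4.48 on the WT control arrays and 1.75, 1.65, 2.24, 2.26 and 2.35 on the irradiated ones. On the Il10-/- arrays the controls read 5.48, 5.65, 5.65, 5.75 and 4.25 and the irradiated mice 1.73, 2.04, 1.57, 2.46 and 1.76. The control values are all above the irradiated values in both genotypes, and the lowest control arrays are replicates 4 and 5 of the WT mice and replicate 5 of the Il10-/- mice. The difference was -3.43 ± 0.42 (SE, adjusted p 0.00017) in WT mice and -3.44 ± 0.31 (adjusted p 3.15e-05) in Il10-/- mice, lower on 5 of 5 slides in each. With normexp it was -1.56 and -2.02, called in neither genotype. The second probe, A_55_P2082929, which lies further 3′ in the same transcript, fell by 4.35 and 4.71, and with normexp, which changes dim values most, by 1.94 and 2.01, called in neither genotype. Its means were 5.29 ± 0.75 (SD, n = 5) and 0.94 ± 0.19 in WT mice and 4.97 ± 0.76 and 0.26 ± 0.25 in Il10-/- mice, where only 2 of the 5 irradiated arrays were well above background, so the size of the fall there rests in part on background values. H2-Ob is also among the genes the study itself picked from these arrays to separate irradiated from control mice, so these values are not independent evidence for that choice.

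The third H2-Ob probe, A_55_P2057931, is annotated to a different transcript record of the gene. It read between -2.78 and -0.30 on the 20 arrays, within background throughout, so it gives no value for that transcript.

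H2-Oa, the α chain of H2-O, has 1 probe. It read 6.09, 6.00, 5.90, 4.93 and 1.67 on the WT control arrays and 1.76, 1.84, 2.79, 2.42 and 2.61 on the irradiated ones. It read 5.45, 5.59, 5.79, 5.81 and 4.46 on the Il10-/- control arrays and 1.59, 1.73, 1.10, 1.71 and 1.77 on the irradiated ones. The groups do not overlap in Il10-/- mice, and in WT mice they overlap through control replicate 5 alone, whose spot was not well above background. H2-Oa fell by 3.84 in Il10-/- mice, with a standard error of 0.29 and an adjusted p of 8.7e-06. With normexp the Il10-/- difference was -2.27 and was not called. In WT mice the difference of -2.63 ± 0.69 was not called (adjusted p 0.019), and without control replicate 5 it was -3.44 and called. It was also called with the replicate block and with 1 fit of all arrays, at the same difference, and with the 4 scalings named above (-2.86 to -2.72), but not with normexp (-1.19). The interaction of genotype and dose for H2-Oa, -1.21 ± 0.82, was not called (adjusted p 0.718).

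H2-DMb2 and H2-DMb1 encode alternative β chains of H2-M, the exchange factor, and are described in turn. H2-DMb2 read 3.96, 4.11, 3.98, 1.66 and 1.88 on the WT control arrays and -0.04, 0.12, 0.73, -0.85 and -0.48 on the irradiated ones. On the Il10-/- arrays it read 3.02, 3.56, 3.23, 3.14 and 2.02 without irradiation and -0.81, -0.02, -0.05, -0.55 and -1.06 after it. All control values lie above all irradiated values, and the signal exceeded background well on every control array, on 2 of 5 irradiated WT arrays and on none of the irradiated Il10-/- arrays. H2-DMb2 fell by 3.22 in WT mice (SE 0.54, adjusted p 0.00147) and fell by 3.50 in Il10-/- mice (SE 0.32, adjusted p 3.33e-05). With normexp the falls were 0.87 and 0.77 and neither was called, so their size is uncertain. Since the irradiated Il10-/- values are in the background, the size of the change there is not measured. Those values were also raised to at least the lowest value of any well-above-background probe on the same array. The fall was then 2.44 (5.42-fold) with the main scaling. That level is set by other probes and is not a limit measured for this one, so 2.44 is no minimum. The H2-DMb2 probe starts at base 223 of its transcript record and its sequence is shown because the finding on this β chain rests on it alone.

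H2-DMb2 probe A_52_P1391: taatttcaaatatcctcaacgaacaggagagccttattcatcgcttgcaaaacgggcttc

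H2-DMb1, by contrast, read 7.45, 7.60, 7.29, 6.26 and 5.66 on the WT control arrays and 5.49, 5.42, 5.37, 5.54 and 6.14 on the irradiated ones. On the Il10-/- arrays it read 6.94, 6.85, 6.93, 7.41 and 5.94 in controls and 5.33, 5.31, 5.39, 5.75 and 5.73 after irradiation. The groups overlap in WT mice, where control replicate 5 is below irradiated replicate 5, and do not overlap in Il10-/- mice. The difference was -1.26 ± 0.43 in WT mice, not called (adjusted p 0.0619), and it fell by 1.31 in Il10-/- mice (SE 0.27, adjusted p 0.00644). Without WT control replicate 5 the WT difference was -1.56 and called. The Il10-/- call was lost without any 1 of control replicates 1 to 4 or irradiated replicates 1 to 3, at differences of -1.30 to -1.16.

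H2-DMa, the α chain that pairs with either β chain, read 5.52, 5.58, 5.35, 3.80 and 3.59 on the WT control arrays and 3.41, 3.77, 3.94, 3.88 and 4.65 on the irradiated ones. It read 5.04, 5.17, 5.14, 5.26 and 4.24 on the Il10-/- control arrays and 3.57, 4.06, 3.86, 4.10 and 4.50 on the irradiated ones. Replicates 4 and 5 of the WT controls and replicate 5 of the Il10-/- controls lie among the irradiated values, so the groups overlap in both genotypes. The differences of -0.84 ± 0.47 (adjusted p 0.26) and -0.95 ± 0.26 (adjusted p 0.0244) were not called. The second was called without Il10-/- control replicate 5, at -1.13. The first was called, at -1.55, without the arrays under 40% well above background, an alternative chosen after seeing the data. On slide 5 the irradiated WT array was higher than its control by 1.06.

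H2-Ab1, H2-Aa and H2-Eb1 encode class II chains. H2-Ab1 (A_55_P1962747) read 10.38, 10.33, 10.07, 8.99 and 9.04 on the WT control arrays and 7.52, 7.52, 7.87, 8.05 and 8.62 on the irradiated ones. On the Il10-/- arrays it read 9.63, 9.62, 9.98, 10.27 and 8.68 in controls and 7.51, 7.65, 8.16, 8.32 and 8.55 after irradiation. The groups do not overlap in either genotype, but the within-slide difference on slide 5 is small, -0.42 in WT mice and -0.13 in Il10-/- mice. H2-Ab1 fell by 1.85 in WT mice (SE 0.42, adjusted p 0.00881) and by 1.59 in Il10-/- mice (SE 0.32, adjusted p 0.00537). The WT call was lost without any 1 of control replicates 1 to 3 or irradiated replicates 1 to 3 (-1.83 to -1.69), and the Il10-/- call without control replicate 3 or irradiated replicate 1 or 2 (-1.51 to -1.46).

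The 2 H2-Ab1 probes overlap by 51 bases and differ at 1 base, T51C, counted from 1 at the 5′ end of A_55_P1962747, so they are not independent measures. Their shared stretch is shown with that base in capitals.

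A_55_P1962747, bases 31 to 60: agattacaaataaacgagacTcagactctg
A_55_P2146560, bases 22 to 51: agattacaaataaacgagacCcagactctg

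Over the 20 arrays the values of the 2 probes correlated at r = 0.997 (description), and A_55_P2146560 fell by 1.81 in WT mice (adjusted p 0.0117) and fell by 1.61 in Il10-/- mice (adjusted p 0.00569). With normexp its differences were -0.88 in WT mice and -1.87 in Il10-/- mice, called in neither genotype. Its WT call was lost without any 1 of control replicates 1 to 3 or irradiated replicates 1 to 4 (-1.83 to -1.64), and its Il10-/- call without control replicate 3 or 4 or irradiated replicate 1 or 2 (-1.51 to -1.44).

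H2-Aa, the α chain that pairs with H2-Ab1, ranged from 6.00 to 7.67 in WT controls and from 4.65 to 5.63 after irradiation, and from 5.78 to 7.33 and 4.98 to 5.55 in Il10-/- mice. It fell by 1.80 (SE 0.44, adjusted p 0.0139) and by 1.60 (SE 0.30, adjusted p 0.00395), with no overlap in either genotype. With normexp its differences were -0.95 in WT mice and -1.54 in Il10-/- mice, called in neither. Its WT call was lost without any 1 of control replicates 1 to 3 or any 1 of the irradiated arrays (-1.91 to -1.62), and both calls were lost with the replicate block. H2-Eb1, another class II β chain, read 10.61, 10.71, 10.49, 9.32 and 9.03 in WT controls and 8.20, 8.20, 8.43, 8.47 and 8.80 after irradiation, without overlap. Its WT difference of -1.61 ± 0.42 just missed the threshold (adjusted p 0.0178) and was called without control replicate 4 (-1.79) or 5 (-1.86). H2-Eb1 fell by 1.49 in Il10-/- mice (SE 0.32, adjusted p 0.00761), with Il10-/- control replicate 5 at 8.72 inside the irradiated range of 8.19 to 8.76. That call was lost without any 1 of 8 arrays, the exceptions being control replicate 5 and irradiated replicate 4, at -1.52 to -1.34.

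Cd74, the invariant chain that accompanies new class II molecules, read 9.26, 9.88, 9.21, 8.39 and 8.44 in WT controls and 6.62, 6.66, 6.65, 7.22 and 7.74 after irradiation. Il10-/- values were 9.02, 9.17, 9.20, 9.74 and 7.98 in controls and 6.54, 7.08, 7.41, 7.81 and 7.74 after irradiation. Every control array is above every irradiated array, and the smallest within-slide differences, on slide 5, were -0.70 and -0.24. Cd74 fell by 2.06 in WT mice (SE 0.41, adjusted p 0.00425) and by 1.71 in Il10-/- mice (SE 0.35, adjusted p 0.00554). With normexp the differences were -0.93 in WT mice and -1.95 in Il10-/- mice, called in neither genotype. The Il10-/- call was lost without control replicate 2 or 3 or irradiated replicate 1 or 2 (-1.67 to -1.52).

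**Figure D2:**
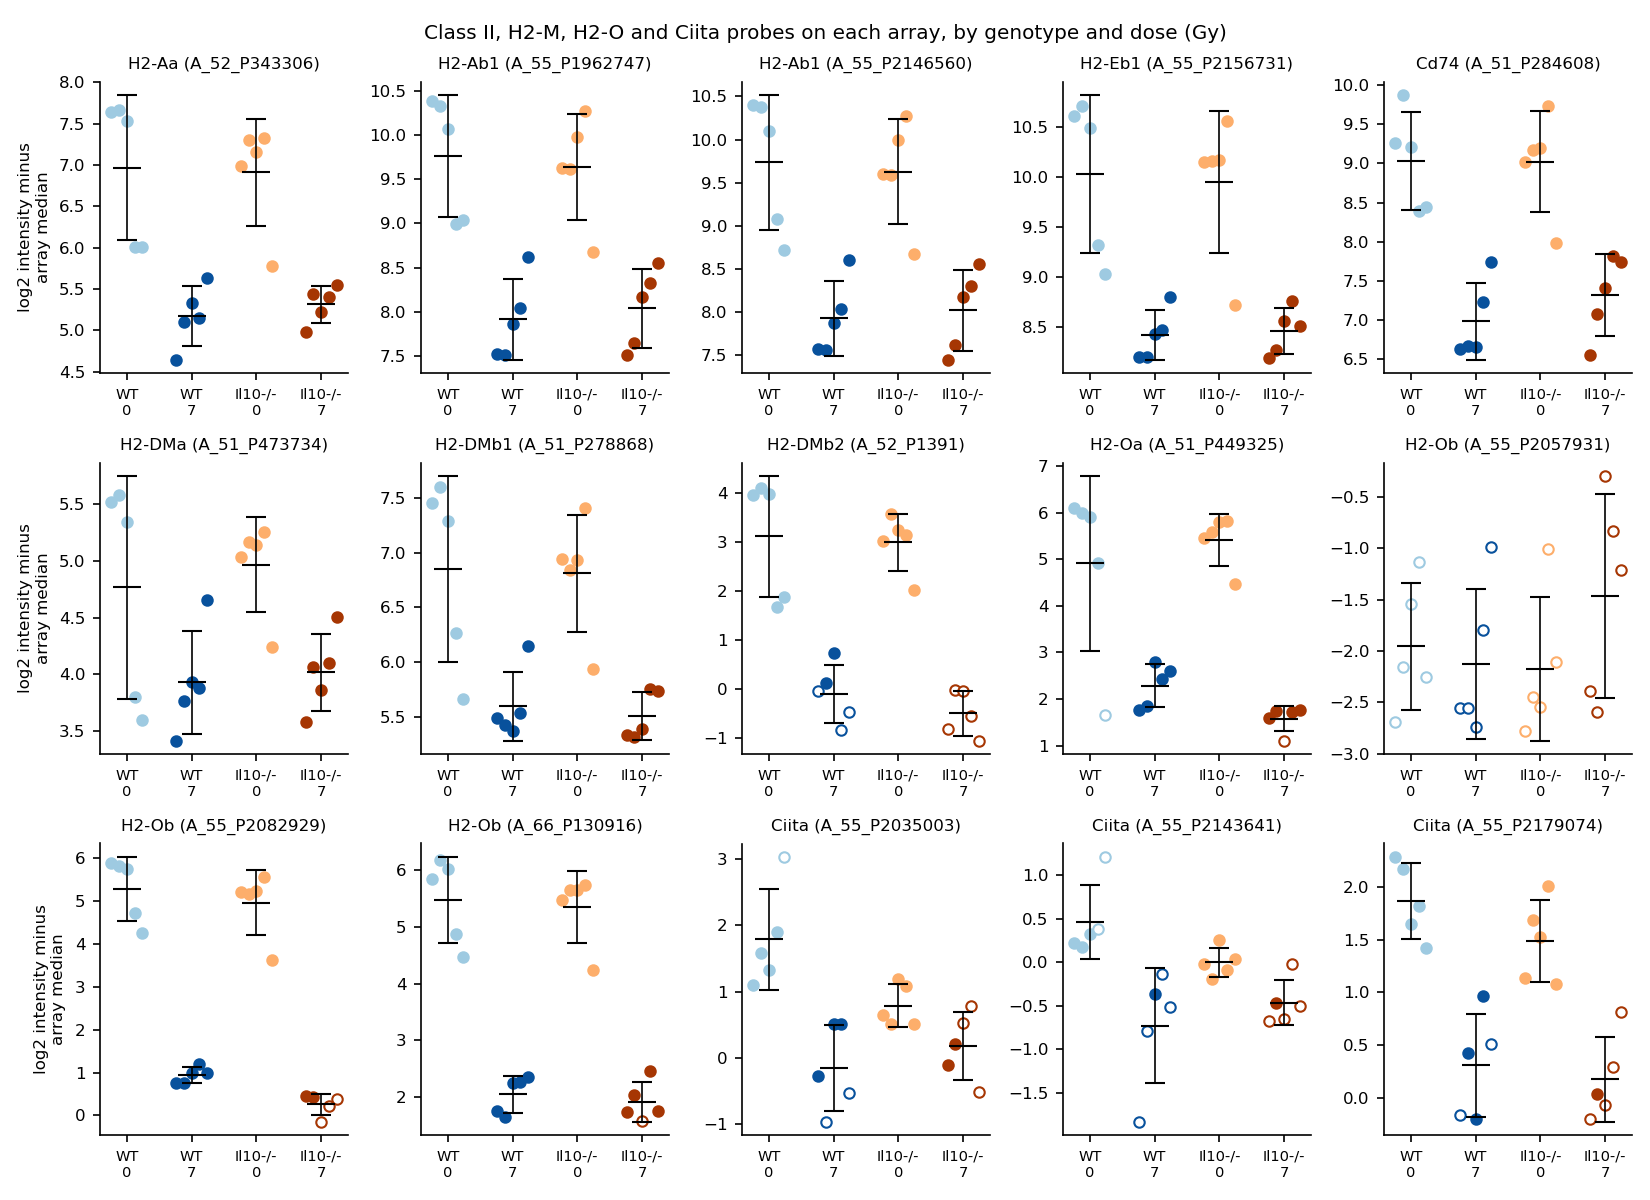
Log2 intensity minus the array median for each of the 15 probes on each of 20 arrays, grouped by genotype and dose, with replicates 1 to 5 from left to right and the mean and SD of 5 arrays. Open points were not well above background. H2-Ob A_66_P130916 sits between 4.25 and 6.19 on control arrays and between 1.57 and 2.46 on irradiated ones, while H2-DMa overlaps between doses in both genotypes.

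Ciita has 3 probes, of which 2 were tested. The RefSeq probe A_55_P2179074 read 2.29, 2.17, 1.65, 1.82 and 1.42 in WT controls and -0.16, 0.42, -0.20, 0.96 and 0.51 after irradiation. Il10-/- values were 1.14, 1.69, 1.53, 2.01 and 1.08 in controls and -0.20, 0.03, -0.07, 0.29 and 0.81 after irradiation. The groups do not overlap in either genotype, and 3 of 5 irradiated WT arrays and 1 of 5 irradiated Il10-/- arrays were well above background. It fell by 1.56 in WT mice (SE 0.38, adjusted p 0.0127) and by 1.32 in Il10-/- mice (SE 0.27, adjusted p 0.00564). The WT call was lost without any 1 of control replicates 1 to 4 or irradiated replicates 1, 2, 3 or 5 (-1.62 to -1.44), and the Il10-/- call without control replicate 2 or 4 or irradiated replicate 1 or 2 (-1.28 to -1.19).

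The other Ciita probes are annotated to 1 shorter transcript record. A_55_P2035003 read 1.10, 1.58, 1.32, 1.91 and 3.04 in WT controls and -0.27, -0.97, 0.51, 0.51 and -0.53 after irradiation. Il10-/- values were 0.65, 0.51, 1.19, 1.08 and 0.52 in controls and -0.11, 0.21, 0.52, 0.78 and -0.52 after irradiation. The highest value, WT control replicate 5, was not well above background, and the groups overlap in Il10-/- mice only. It fell by 1.94 in WT mice (SE 0.45, adjusted p 0.0107), and the difference of -0.61 ± 0.28 in Il10-/- mice was not called (adjusted p 0.141). The WT call was lost without control replicate 2 or 4 or irradiated replicate 1, 2 or 5 (-1.99 to -1.74). It was also lost with the 75th percentile, reference array, quantile and deposited-table values (-2.19 to -2.03), and with replicates 1 and 2 averaged (-1.94). The interaction, 1.33 ± 0.53, was the largest of the 13 probes and was not called (adjusted p 0.688). A_55_P2143641 passed the background filter but not that on change, and its differences were -1.19 (exact two-sided permutation p 0.00794, the smallest that 5 against 5 can give) and -0.46 (exact p 0.0238). Over the 20 arrays the RefSeq probe correlated with these at r = 0.612 and 0.683, and they with each other at 0.842 (description).

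Differences between gene groups within an array are free of any constant added to the array. The H2-O mean minus the mean of the classical chains with Cd74, 1 probe a gene, was -3.50, -3.56, -3.36, -3.27 and -5.06 on the WT control arrays and -4.99, -5.12, -4.55, -4.88 and -5.22 on the irradiated ones. On the Il10-/- arrays it was -3.48, -3.44, -3.41, -3.69 and -3.44 in controls and -5.15, -5.22, -6.00, -5.49 and -5.82 after irradiation. The doses separate in Il10-/- mice, and in WT mice they would but for control replicate 5, the array on which H2-Oa was at background. The change was -1.20 in WT mice (SD over control arrays 0.74, over irradiated arrays 0.26) and -2.04 in Il10-/- mice (SD 0.12 and 0.37), a description with no test. Under normexp, which changes dim values most, the changes were -0.43 and -0.37. H2-Ob alone against the classical chains changed by -1.61 and -1.84, without overlap in either genotype and on 5 of 5 slides within -1.76 to -1.38 and -2.29 to -1.39. With normexp these changes were -0.62 and -0.25, with overlap in both genotypes, so their size depends on the background correction.

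The 3 H2-M genes averaged together changed against the classical chains by 0.05 in WT mice (SD 0.29 and 0.31) and by -0.32 in Il10-/- mice (SD 0.18 and 0.23), with overlap in both. Within slides the change ran from -0.10 to 0.16 in WT mice and from -0.80 to -0.12 in Il10-/- mice. Under normexp the changes between doses were 0.54 and 0.78, which is the opposite sign in Il10-/- mice. The H2-M mean joins unlike members. H2-DMa against the classical chains changed by 0.99 and 0.65 without overlap. The doses did overlap for it in WT mice under normexp and in Il10-/- mice with quantile normalization (0.54). H2-DMb1 against the classical chains changed by 0.57 without overlap in WT mice and by 0.29 with overlap in Il10-/- mice. H2-DMb2 against H2-DMb1 was -3.49, -3.49, -3.32, -4.60 and -3.78 on the WT control arrays and -5.54, -5.31, -4.65, -6.39 and -6.62 on the irradiated ones. The same difference was -3.92, -3.28, -3.70, -4.27 and -3.92 on the Il10-/- control arrays and -6.14, -5.34, -5.44, -6.30 and -6.79 on the irradiated ones. Every irradiated array is below every control array, though the doses overlap in both genotypes with normexp. H2-DMb2 was not well above background on 3 of 5 irradiated WT arrays, nor on any irradiated Il10-/- array, so the size of this change is not measured. In Il10-/- mice its fall to the lowest well-above-background level of the arrays, 2.44 and no minimum, stands beside a fall of 1.31 for H2-DMb1. The order of these β chains depends on the background correction in Il10-/- mice, where normexp gave -0.77 for H2-DMb2 and -1.40 for H2-DMb1, neither called. Ciita against the classical chains changed by 0.26 and 0.28, with overlap in both genotypes. Those changes were 0.60 and 1.49 with normexp, and 0.36 and 0.08 with quantile normalization, again with overlap.

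**Figure D3:**
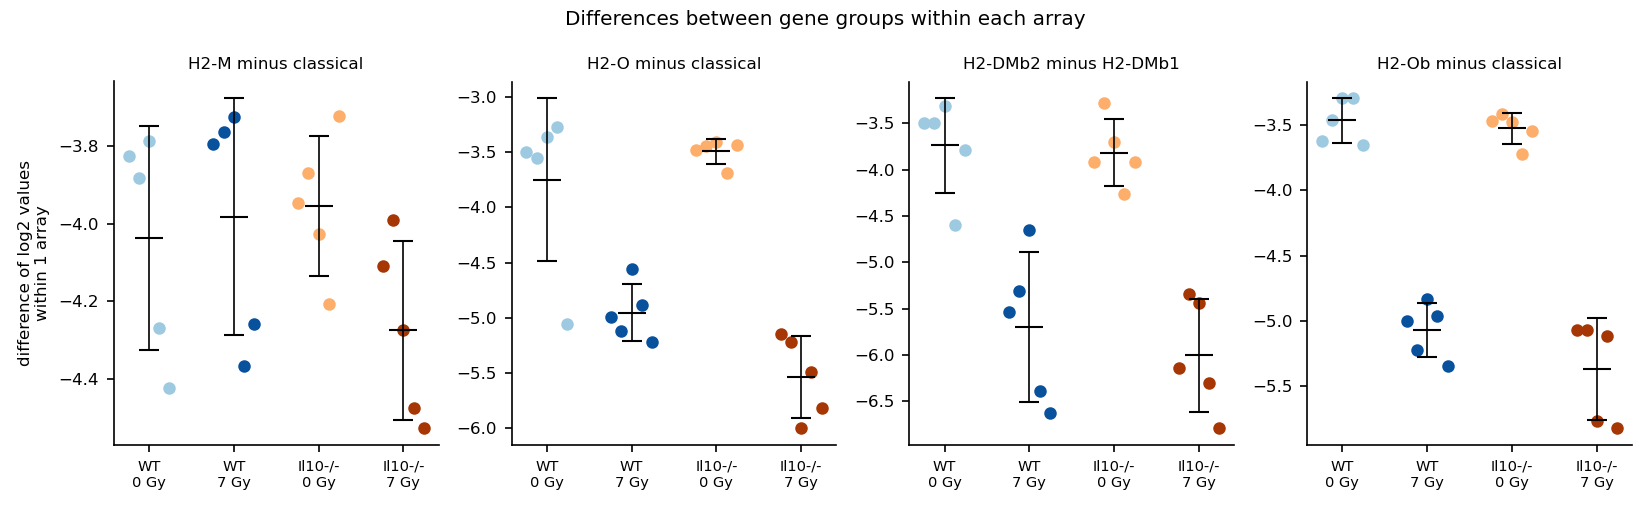
Differences of log2 values within each array for 4 pairs of gene groups, by genotype and dose, with the mean and SD of 5 arrays. H2-Ob minus the classical chains lies between -3.72 and -3.29 on control arrays and between -5.82 and -4.83 on irradiated arrays, while H2-M minus the classical chains overlaps between doses.

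Between the genotypes none of the 13 probes was called by limma in unirradiated mice, where 0.845% of all probes were called, and 1 (Ciita A_55_P2035003) was at an unadjusted p under 0.05, beside 16.1% of all probes. The groups overlapped for 13 of 13 probes, beside 4.54% of all probes without overlap and 0.554% lower without overlap. The median difference of the 13 probes, Il10-/- minus WT, was -0.11, beside 0.36 over all probes. Both depended on scaling. Over the scalings the median of the probes of the set ran from -0.50 (quantile) to 0.24 (normexp, with 2 of 11 lower), and that of all probes from -0.07 to 0.53. In irradiated mice limma called 0 of 13, with 2 at an unadjusted p under 0.05, beside 11.1% of all probes, where 0.00538% of all probes were called. Those 2 were H2-Oa (-0.71 ± 0.27, adjusted p 0.402) and H2-Ob A_55_P2082929 (-0.68 ± 0.21, adjusted p 0.368), the latter the only probe whose irradiated groups did not overlap, beside 2.96% of all probes without overlap and 0.716% lower without overlap. For the interaction of genotype and dose limma called 0 of 13, with 1 at an unadjusted p under 0.05, beside 0 of all probes called (0%) and 7.00% of all probes at an unadjusted p under 0.05. The probes called in one genotype and not in the other are therefore not shown to differ between genotypes.

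Each slide gives its own difference between the irradiated and the control array of a genotype. For H2-Ob A_66_P130916 these ran from -4.54 to -2.12 in WT mice and from -4.08 to -2.48 in Il10-/- mice. For H2-Ab1 they ran from -2.85 to -0.42 and from -2.12 to -0.13. Of the 13 probes, 10 were lower on 5 of 5 slides in WT mice and 12 in Il10-/- mice. The exceptions were H2-DMa (3 of 5 slides in WT mice and 4 of 5 in Il10-/- mice), H2-DMb1 and H2-Oa (4 of 5 each in WT mice). No share of all probes lower on every slide is given here, so these counts are not read as particular to these genes. For the classical chains and Cd74 the smallest within-slide difference was on slide 5 in both genotypes. Without that slide, an alternative chosen after seeing the data, 11 probes were called in WT mice, beside 6.52% of all probes, and 12 in Il10-/- mice, beside 6.74%.

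Promoters are shown because these genes share known control elements. The promoter set searched (RefSeq, GRCm38.p6) holds 7 of the 10 genes and lacks H2-Ab1, Cd74 and Ciita, although RefSeq lists all 10. The 250 bases before the start are printed 5′ to 3′ on the gene's strand. An X-like stretch spelled AACNNNTGATG, chosen with these promoters in view, and the Y-box core ATTGG were searched on both strands. The search and the shares below cover each promoter sequence in full, which runs past the start and so beyond the 250 bases printed. Capitals mark matches on the printed strand, and an ATTGG on the other strand of H2-Eb1 is not marked. AACNNNTGATG occurred in 202 of 32851 promoters (0.615%) and ATTGG in 12289 (37.4%). The X-like stretch followed by ATTGG after 10 to 30 bases occurred in 9 (0.0274%), and 4 of those 9 were H2-DMb1, H2-DMb2, H2-Eb1 and H2-Ob.

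H2-Ob, chr17:34238655-34238904, + strand: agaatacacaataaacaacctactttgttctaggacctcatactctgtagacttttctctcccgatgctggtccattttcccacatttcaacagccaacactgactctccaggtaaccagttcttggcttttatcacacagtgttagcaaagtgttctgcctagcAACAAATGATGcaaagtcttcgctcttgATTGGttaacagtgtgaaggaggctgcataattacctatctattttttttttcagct
H2-DMb2, chr17:34144999-34145248, + strand: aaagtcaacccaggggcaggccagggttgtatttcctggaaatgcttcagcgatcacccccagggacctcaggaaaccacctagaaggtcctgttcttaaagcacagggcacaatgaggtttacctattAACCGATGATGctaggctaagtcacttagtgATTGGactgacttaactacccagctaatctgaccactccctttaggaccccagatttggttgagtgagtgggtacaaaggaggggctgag
H2-DMb1, chr17:34152941-34153190, + strand: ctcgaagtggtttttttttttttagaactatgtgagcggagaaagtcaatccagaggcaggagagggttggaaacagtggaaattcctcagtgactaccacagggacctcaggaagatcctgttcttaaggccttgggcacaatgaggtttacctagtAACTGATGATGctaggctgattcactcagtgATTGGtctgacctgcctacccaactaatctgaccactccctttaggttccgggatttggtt
H2-Eb1, chr17:34305617-34305866, + strand: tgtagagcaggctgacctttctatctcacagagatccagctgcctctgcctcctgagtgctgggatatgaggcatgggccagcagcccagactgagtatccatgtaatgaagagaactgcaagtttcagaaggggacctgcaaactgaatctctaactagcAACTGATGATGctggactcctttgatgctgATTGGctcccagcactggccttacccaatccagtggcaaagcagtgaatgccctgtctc
H2-Oa, chr17:34092129-34092378, + strand: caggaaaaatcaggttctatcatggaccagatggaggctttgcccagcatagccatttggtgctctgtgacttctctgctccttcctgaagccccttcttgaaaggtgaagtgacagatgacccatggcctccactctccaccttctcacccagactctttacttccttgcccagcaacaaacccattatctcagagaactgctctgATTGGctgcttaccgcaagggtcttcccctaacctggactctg
H2-Aa, chr17:34287824-34288073, - strand: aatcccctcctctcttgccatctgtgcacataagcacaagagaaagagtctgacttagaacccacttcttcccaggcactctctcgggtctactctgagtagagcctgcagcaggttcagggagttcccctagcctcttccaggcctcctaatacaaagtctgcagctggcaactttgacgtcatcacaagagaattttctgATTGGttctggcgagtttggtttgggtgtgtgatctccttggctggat

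The pair lies 17 to 20 bases apart in the first 4 stretches. H2-DMb2 and H2-DMb1, the alternative β chains, are equal at 66 of 76 bases of the stretch that holds the pair with 20 bases on each side. H2-Oa and H2-Aa hold ATTGG and not that X-like spelling, and of the 2 entries for H2-DMa neither holds the pair. These matches describe letters in a window and show no binding.

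Apart from Cd74 and Ciita, the genes lie together in the class II region of chromosome 17, with genes of the class I pathway between them. Along the chromosome the order is H2-Oa, Brd2, H2-DMa, H2-DMb2, H2-DMb1, Psmb9, Tap1, Psmb8, Tap2, H2-Ob, H2-Ab1, H2-Aa, H2-Eb1 and H2-Eb2. The 5 neighbours that are not class II genes, which encode proteasome subunits (Psmb8, Psmb9), peptide transporter chains (Tap1, Tap2) and a chromatin reader (Brd2), passed the background filter, and 3 of them were tested. Of those 3, limma called 0 in either genotype, with 0 at an unadjusted p under 0.05. The 5 differences ran from -0.31 to 0.56 in WT mice and from -0.37 to 0.29 in Il10-/- mice. H2-Eb2, a further β chain, failed the background filter and was not tested. It was well above background on 4 of 5 WT and 5 of 5 Il10-/- control arrays and on no irradiated array. With irradiated Il10-/- values raised to the lowest well-above-background level of any probe, it was 3.01-fold lower there, which is no minimum. H2-Ea-ps was not well above background on any array, and H2-Ea was not on the array.

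**Figure D4:**
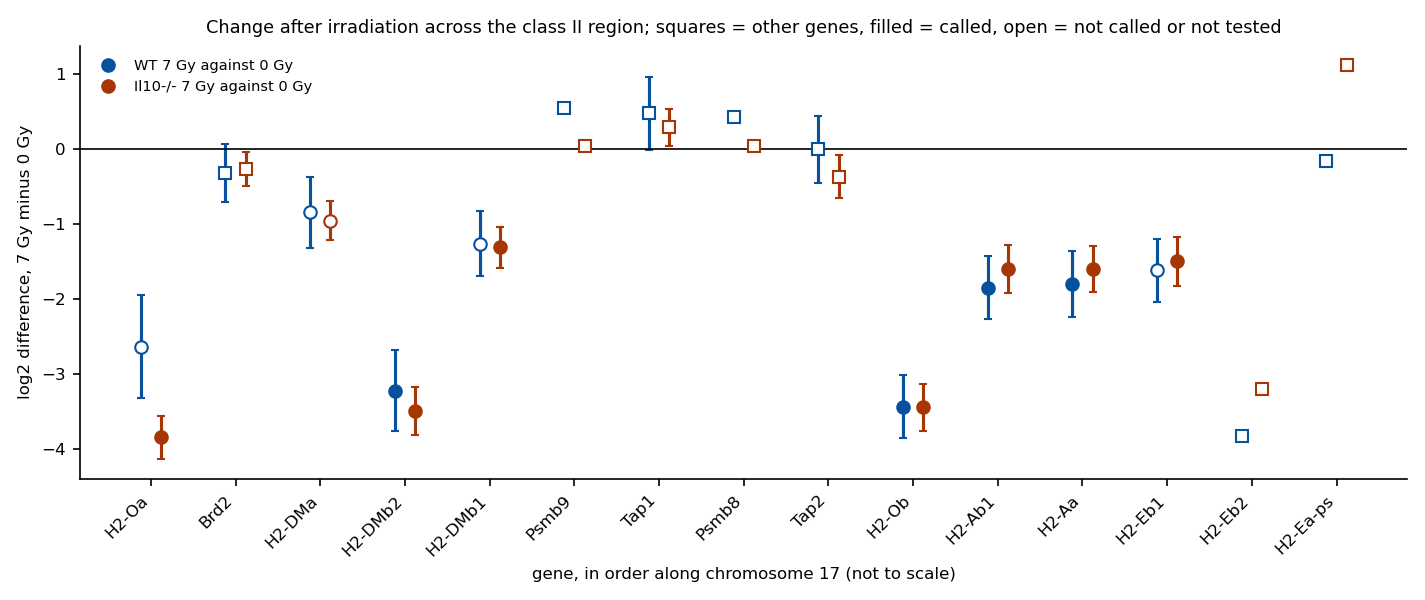
Log2 difference, 7 Gy minus 0 Gy, of genes in their order along the class II region, with standard errors where tested. Circles are the genes described here, squares are other genes, and filled symbols were called. Psmb9, Tap1, Psmb8 and Tap2, between H2-DMb1 and H2-Ob, lie between -0.37 and 0.56, and H2-Ob on their other side lies at -3.43 and -3.44.

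Among 13 factors that bind class II promoters or act on Ciita, 8 were tested and 1 was called in each genotype. That is near the shares of all probes called, 6.80% in WT and 9.16% in Il10-/- mice. By limma 1 of the 8 in WT mice and 5 in Il10-/- mice were at an unadjusted p under 0.05, beside 29.1% and 35.5% of all probes. The factor called was Irf8, a factor of B cells and myeloid cells. It fell by 1.78 in WT mice (adjusted p 0.00759) and by 2.02 in Il10-/- mice (adjusted p 0.000338). The X-box subunits Rfx5 and Rfxap failed the background filter, and among those that passed only the background filter were Rfxank and Nfyc. Rfxank differed by 0.32 and 0.35. Of 7 endosomal enzymes, the proteases and the reductase Ifi30, 2 were called higher in WT mice, Ctsl (by 4.08, adjusted p 0.000526) and Ctsd (by 1.90, adjusted p 0.00401), and limma called 0 in Il10-/- mice, with 4 at an unadjusted p under 0.05. Ctsl was also called higher in unirradiated Il10-/- than WT mice, by 2.30 (adjusted p 0.0804), and its interaction of -2.90 was not called (adjusted p 0.688). Of the ligases that remove class II from the surface and Cd83, which opposes them, March1 was called higher in Il10-/- mice (by 1.43, adjusted p 0.00271) and Cd83 lower in WT mice (-2.40, adjusted p 0.00345). Of the co-stimulatory genes Cd40, Cd80 and Cd86, Cd40 was called lower in Il10-/- mice (-1.80, adjusted p 0.00388), and limma called 0 of the 3 in WT mice, with 0 at an unadjusted p under 0.05. Cd40 had an interaction of -1.04 (adjusted p 0.688), March1 of 0.42 (adjusted p 0.868) and Cd83 of 0.44 (adjusted p 0.903), none called.

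In arrays of whole blood, fewer cells of a type and less RNA per cell cannot be told apart. The study's blood counts gave a significantly lower lymphocyte percentage after irradiation in both genotypes, and no significant change in monocyte percentage. Those counts do not separate B cells from other lymphocytes. Of 14 B-cell markers, 12 were on the array and 11 were tested, and 9 of the 11 were called lower in each genotype, with medians of -2.91 in WT mice and -3.53 in Il10-/- mice. Blk failed the background filter, Ighm and Ighd were not on the array, and Cd79b had the highest mean, though it was the highest on only 9 of 20 arrays. The log2 of their summed intensity was 10.73, 10.84, 10.56, 9.73 and 9.30 on the WT control arrays and 7.20, 7.28, 7.72, 7.83 and 8.48 on the irradiated ones. On the Il10-/- arrays it was 10.04, 10.16, 10.13, 10.48 and 9.43 in controls and 7.01, 7.40, 7.68, 7.88 and 7.87 after irradiation. Doses do not overlap, and the lowest sums among control arrays fall on the same 3 arrays that were lowest for H2-Ab1 and H2-Ob. The part of B cells in the class II differences was not tested.

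Within the 10 unirradiated arrays, the 10 genes correlated with the B-cell sum at r = 0.747 to 0.983 (median 0.934) with the dendritic-cell sum at 0.512 to 0.911 (median 0.624) and with the monocyte sum at -0.158 to 0.552. The dendritic-cell value of H2-Oa, the 0.911, includes the WT control array on which H2-Oa was at background and the dendritic-cell sum was lowest. The genes correlated with each other at 0.456 to 0.985 (median 0.911 over 45 pairs). Within the 10 irradiated arrays the classical chains and Cd74 correlated with the B-cell sum at 0.761 to 0.916 and with the monocyte sum at 0.81 to 0.894. All 10 genes correlated there with the dendritic-cell sum at -0.223 to 0.496. H2-Ob correlated there with the B-cell and monocyte sums at 0.636 and 0.518, H2-Oa at 0.493 and 0.0798, and H2-DMb2, mostly in background, at -0.195 and -0.494. These are descriptions over arrays that share slides and differ in signal over background.

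**Figure D5:**
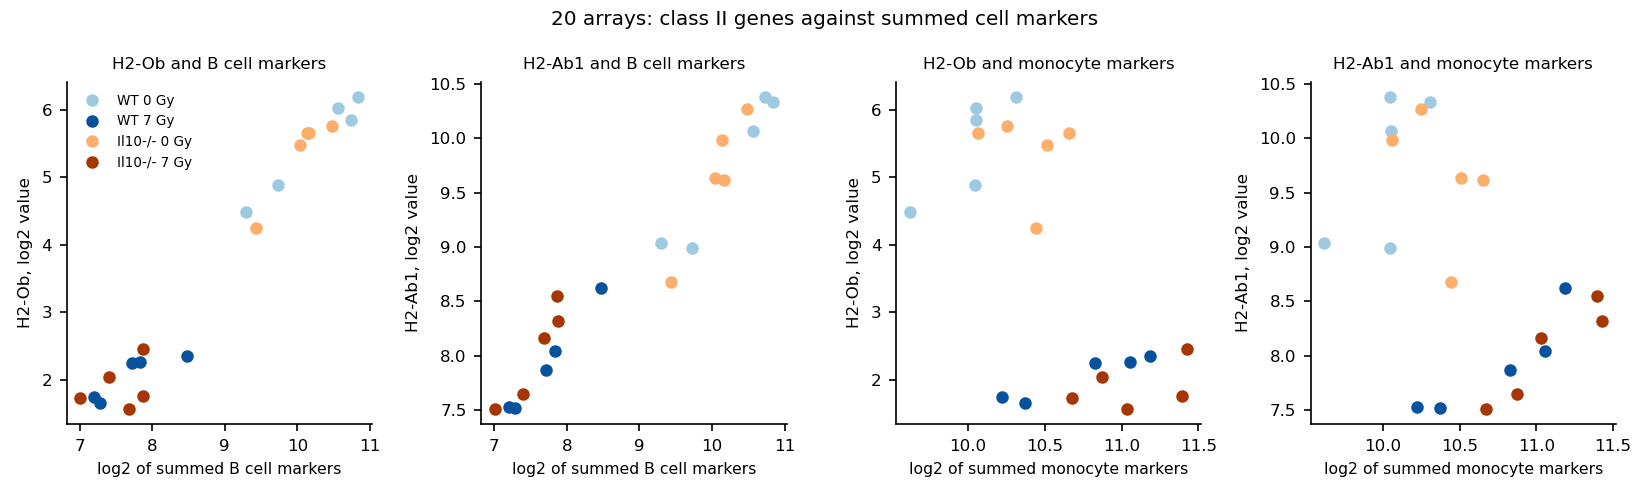
H2-Ob A_66_P130916 and H2-Ab1 A_55_P1962747 (log2 values) against the log2 of summed B-cell or monocyte markers on 20 arrays, coloured by group. B-cell sums lie between 9.30 and 10.84 on control arrays and between 7.01 and 8.48 on irradiated arrays, and monocyte sums between 9.62 and 10.65 and between 10.22 and 11.43.

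The monocyte list has 10 names for 9 genes, since Emr1 is the former name of Adgre1. Of these genes 8 were on the array, all but Ly6c2, and 7 were tested, all 8 above background by the filter, with Itgam the highest by mean (on 19 of 20 arrays). Adgre1 was called higher in both genotypes (by 2.77 and 1.66) and Cx3cr1 lower in both (-2.29 and -3.14), with Cd14 higher in WT mice (by 2.79) and Ccr2 lower in Il10-/- mice (-1.39). The summed level of the 8 was 10.05, 10.31, 10.05, 10.04 and 9.62 in WT controls and 10.22, 10.37, 10.83, 11.05 and 11.18 after irradiation. Il10-/- sums were 10.51, 10.65, 10.06, 10.25 and 10.44 in controls and 10.67, 10.87, 11.03, 11.43 and 11.39 after irradiation. Irradiated arrays lie above control arrays in Il10-/- mice, and the doses overlap in WT mice. Of 9 dendritic-cell markers 8 were tested (Xcr1 failed the background filter, and Siglech was the highest by mean and on 20 of 20 arrays). Flt3 was the only 1 called in either genotype, lower in both by differences of -2.19 and -2.61, the largest falls of the list. The list's median differences were -0.18 and -0.36, and its largest rises 1.53 and 1.40, in WT and Il10-/- mice. The sum of the 9 was 10.54, 10.50, 10.48, 10.48 and 9.47 in WT controls and 9.85, 9.82, 9.74, 9.75 and 9.62 after irradiation, and 10.42, 10.43, 10.17, 10.67 and 10.18 and then 9.95, 9.86, 9.20, 10.86 and 9.80 in Il10-/- mice. The part of these cells was not tested either.

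The other blood lists gave few calls. Of 9 T-cell markers 7 were tested (Lck highest by mean, and on 11 of 20 arrays), and Cd8a was called lower in both genotypes (-3.03 and -2.02) and Il7r in Il10-/- mice (-1.21). Of 6 erythroid markers, all tested (Alas2 highest on 20 of 20 arrays), 2 were called lower in each genotype, among them Slc4a1 (-2.93 and -3.15), and 1 higher in WT mice, Epor (1.76). Limma called 0 of 6 neutrophil markers (S100a9 highest on 20 of 20), with 0 and 2 at an unadjusted p under 0.05 in WT and Il10-/- mice, and 0 of 5 NK-cell markers (Gzma on 20 of 20), with 2 and 1. It called 0 of 5 platelet markers (Pf4 on 19 of 20), with 5 and 4, and 0 of the 2 plasma-cell markers tested of 5 (Xbp1 on 20 of 20), with 0 and 2. Sdc1 and Tnfrsf17 of the plasma-cell list failed the background filter, and the neutrophil marker Ly6g was not on the array. Igj, also listed, is the former name of Jchain, which was tested. All 5 platelet markers were higher in irradiated mice, by medians of 1.26 in WT and 1.19 in Il10-/- mice. The platelet sum was 12.63, 12.60, 12.32, 12.86 and 10.93 in WT controls and 13.29, 13.27, 13.72, 14.26 and 14.18 after irradiation. Il10-/- platelet sums were 13.90, 13.95, 12.26, 11.80 and 13.78 in controls and 14.08, 14.00, 14.08, 14.68 and 14.39 after irradiation. The doses do not overlap in either genotype. Mean sums in WT controls, irradiated WT, Il10-/- controls and irradiated Il10-/- mice were 9.42, 8.92, 9.88 and 9.43 for T cells. The same means were 12.26, 12.29, 14.15 and 13.29 for neutrophils. The part of these cells was not tested.

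Markers of tissues other than blood also differed between arrays. Of 10 liver markers 9 were tested (Apoa1 failed the background filter, and Serpina1a was the highest by mean, and on 14 of 20 arrays), and 5 were called higher in irradiated WT mice and 0 in irradiated Il10-/- mice by limma, where 0 were at an unadjusted p under 0.05. The liver sum was 5.95, 6.13, 5.66, 6.16 and 4.80 in WT controls and 15.47, 15.46, 12.86, 6.62 and 9.89 after irradiation. Il10-/- sums were 6.14, 6.14, 12.72, 13.88 and 6.19 in controls and 13.84, 13.85, 5.48, 12.68 and 9.12 after irradiation. Arrays with high sums are found in 3 of the 4 groups. Of 8 heart-muscle markers 5 were tested (Actc1, Ryr2 and Pln failed the background filter, and Myh6 was the highest by mean, and on 12 of 20 arrays), and all 5 were called higher in irradiated Il10-/- mice and 0 by limma in irradiated WT mice, where 3 were at an unadjusted p under 0.05. The heart sum was 5.16, 5.32, 1.94, 5.78 and 3.85 in WT controls and 12.24, 12.13, 8.43, 2.79 and 2.86 after irradiation, and 2.34, 2.35, 2.02, 3.29 and 7.13 and then 11.94, 11.85, 8.82, 9.94 and 4.89 in Il10-/- mice. The part of such RNA in the class II values was not tested.

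The genes whose pattern over the 20 arrays was most like H2-Ob among 15701 genes outside the set were Btla (r = 0.99), Tnfrsf13c (0.989), Cxcr5 (0.983) and Fcmr (0.982), with 1 unnamed transcript between them (0.987). Most like H2-Ab1 were Fgd2 (0.955) and Pou2f2 (0.943), with 3 unnamed transcripts between 0.944 and 0.945. The arrays form a control and an irradiated set, which these values pool. Btla changed by -3.39 and -3.31 and Tnfrsf13c by -4.61 and -4.89 in WT and Il10-/- mice, next to -3.43 and -3.44 for H2-Ob, while Fgd2 changed by -1.81 and -2.03, next to -1.85 and -1.59 for H2-Ab1.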

How the data were processed

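Blood RNA of 20 mice, as labelled, was measured on 1 single-colour Agilent array each. Per the file headers, the deposited scanner output gives an intensity per spot that Feature Extraction 12.0.2.2 corrected for background and trend and did not scale between arrays. A second source is the authors' table of log2 values for 16909 features, of which 16866 are not controls. It was checked against the scanner values, and 100% of its single-spot values equal the log2 intensity plus a constant for the array to within 0.01.

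After log2 conversion, spots marked as non-uniform were dropped and a probe's remaining spots averaged. Each array was then centred on the median of its 39429 non-control probes. A first filter took out probes marked as non-uniform or as lacking significant signal on at least 25% of the arrays (22997 passed), and a second those where under 20% of the arrays lay 1.5-fold or more from the probe's median (18587 passed both). Each irradiation comparison and each genotype comparison was fitted by limma 3.58.1 in R 4.3.3, with version 1.17.8 of data.table, on its 10 arrays, and the interaction on all 20. A probe was called at p under 0.001 with a Benjamini-Hochberg adjusted p under 0.1. Probes that failed a filter were compared by exact two-sided permutation. Tables and figures used pandas 2.3.3, numpy 2.4.6 and matplotlib 3.10.9 under Python 3.11.15. The fit was tested on simulated data. Precision is limited by 5 arrays a group.

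The genes named are all 10 of the set with every probe annotated to them, and where 1 probe stands for a gene it is the brightest that passed the background filter. Other genes come from lists of class II promoter and Ciita factors, endosomal enzymes, ligases with Cd83, co-stimulation genes, region neighbours and other class II genes. Marker lists cover B cells, plasma cells, dendritic cells, monocytes, T cells, neutrophils, NK cells, erythroid cells, platelets, liver and heart muscle. The rule fixed in advance was to name, from each pathway list, genes that were called, at most 3 rises and 3 falls, and genes with a defining role. Other names were chosen after values were seen, and not every called marker is named. The genes and lists were chosen with earlier results of these data known, and the tests and most alternatives before the data were examined. Alternatives were the 75th percentile, a reference array, quantile normalization, normexp with an offset of 50, the deposited table, fewer filters, 1 fit of all arrays, a replicate block, replicates 1 and 2 averaged, another threshold, all probes of a gene, and each array left out in turn. Promoter positions are in GRCm38.p6, and probe annotation is in mm9. No array was left out of the main results.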

Additional observations from a re-analysis of the deposited data

Results flagged for a closer look

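In 60 sets of 5 values, 1 for each probe and group, the array farthest from the rest was compared with Dixon's critical value for 5 samples, which chance exceeds in about 1 of 20 sets. The test picked out 10 values. Replicate 5 of the unirradiated Il10-/- mice was far below its group for 6 probes: H2-Aa read 5.78 where the nearest other array read 6.99, H2-Eb1 8.72 against 10.15, H2-DMa 4.24 against 5.04, and H2-Oa 4.46 against 5.45. On the same array H2-Ob A_55_P2082929 read 3.63 against 5.17 and H2-Ob A_66_P130916 read 4.25 against 5.48. Those 6 are 1 array, so they are not separate observations. Replicate 5 of the unirradiated WT mice read 1.67 for H2-Oa, where the nearest other array read 4.93, and 1.21 for Ciita A_55_P2143641, where the nearest read 0.38. H2-DMb1 in irradiated WT replicate 5 read 6.145, above the nearest value of 5.54. H2-Oa in irradiated Il10-/- replicate 3 read 1.10, below the nearest value of 1.59, and was not well above background. Of the 10 values, 9 are on slide 5, and the reason was not tested.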

How the results depend on the processing

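In both irradiation comparisons every probe tested was lower in irradiated mice under each of 6 scalings, but how many passed the threshold depended on the processing. The WT count of 9 and the Il10-/- count of 11 both became 0 with normexp (2.28% and 0% of all probes called). With replicates 1 and 2 averaged, which leaves fewer samples, they became 3 and 4 (4.06% and 4.38%). The Il10-/- count was 6 with quantile normalization (9.78% of all probes) and 4 with the replicate block (6.94%). It was 5 without the arrays under 40% well above background (6.56%), an alternative chosen after seeing the data. With 1 array left out in turn, the WT count ran from 4 to 12, beside 4.64% to 8.46% of all probes. The Il10-/- count ran from 5 to 12, beside 6.10% to 8.26%. Under the other alternatives the WT count was 7 to 12 and the Il10-/- count 9 to 12. The shares of all probes there ran from 3.66% to 14.6% in WT mice and from 4.65% to 21.8% in Il10-/- mice. The lowest shares were without filters and the highest at an adjusted p under 0.05 alone. The 3 counts for genotype and interaction were 0 by limma under every alternative run, with 1, 2 and 1 at an unadjusted p under 0.05 with the main processing.

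The H2-M change against the classical chains was 0.54 with normexp in WT mice, where the main value was 0.05. In Il10-/- mice it was 0.78 with normexp, the opposite sign to the main value of -0.32, and -0.095 in the deposited table, which lacks H2-DMb2 on 3 irradiated Il10-/- arrays. The H2-O change was -0.43 with normexp in WT mice, and in Il10-/- mice -0.37 with normexp and -2.36 with all probes of a gene averaged. The cause of these shifts was not tested.

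Of 1537 values of single probes under an alternative, 1252 kept their direction and side of the threshold, 125 lost their call, 28 gained one, and 132 changed sign, called under neither setting, all between genotypes (55 and 23) or in the interaction (54). A change of sign by a called value was found in 0. Signal over background limits H2-DMb2, Ciita and the irradiated H2-O values, whose size of change is uncertain where the irradiated arrays are at background.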
